A study of Mus musculus with 9 samples.

Results

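Rab proteins are small GTPases that give membrane compartments their identity and direct vesicle budding, transport, tethering and fusion. The family was taken as the protein-coding mouse genes whose symbol is Rab, a number, at most 1 letter and at most 1 further digit, and whose counts summed to 10 or more over 9 libraries. Of 53801 genes listed in the count files, 59 were protein-coding Rab genes by this rule for symbols, and 52 of them reached the count minimum. The remaining 7 genes were Rab17, Rab25, Rab26, Rab39b, Rab3c, Rab40b and Rab9b, with 0, 3, 6, 1, 0, 1 and 0 counts in all. The study sorted CD11c-Ly6G-CD11b+CD45high monocytes/macrophages by FACS from male C57BL/6J mice aged 9 weeks and sequenced their mRNA. Sham blood came from sham-operated mice, 1 mouse per library (n = 3), at a time after surgery that is not stated. Stroke blood came from mice 5 days after permanent distal middle cerebral artery occlusion (dMCAO) on the left side, with the left common carotid artery occluded too, also 1 mouse per library (n = 3). Stroke brain came from the ipsilesional hemisphere of such mice at the same time, with the cells of 5 mice pooled in each library (n = 3), so the spread between brain libraries is a spread between pools. None of the 9 libraries is of sham brain, and the authors wrote that the CD45high gate in the brain could hold activated microglia.

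Each Rab protein cycles between a GTP-bound form, which sits on a membrane and recruits effectors, and a GDP-bound form, which the GDP dissociation inhibitors (GDIs) hold in the cytosol. Guanine nucleotide exchange factors (GEFs) switch a Rab protein on and GTPase-activating proteins (GAPs) switch it off. In macrophages, Rab proteins carry a phagosome from its early, Rab5-bearing stage to its fusion with lysosomes, and they direct receptor recycling and the release of granules.

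The 9 libraries held 18475118 to 22623578 counts each. Levels are counts per 1000000 counts (CPM) after TMM scaling, the trimmed mean of M values method of edgeR, unless another scale is named, and are given for libraries 1, 2 and 3 of a group in that order. A count of 3, taken as the floor, corresponded to 0.1245 CPM in stroke brain 2, the deepest library after scaling, and to 0.1795 CPM in stroke blood 3, the shallowest. The libraries were amplified by PCR without molecular identifiers, so floors and counting intervals cover counting error only, and replicates differed by more than counting noise (chi-square per degree of freedom 23.9 to 136 between libraries of a group). Lyz2 was the most abundant gene of the 8 monocyte/macrophage markers in each group, and none of the 8 was at 0. That marker sum was 128100.0, 102300.0 and 91430.0 CPM in sham blood, 104500.0, 111700.0 and 108900.0 CPM in stroke blood and 42760.0, 46810.0 and 49170.0 CPM in stroke brain. Most of it is Lyz2, so its lower brain values follow that gene, while Ly6c2 and Ccr2 were lower and Cd68 higher in both brain comparisons and Csf1r was called in neither. Itgam, the gene of CD11b, was lower versus stroke blood only, with means of 181.8, 220.8 and 143.4 CPM in sham blood, stroke blood and stroke brain. Itgax, the gene of the CD11c that the sort excluded, averaged 11.37, 14.83 and 94.48 CPM and was higher in brain in both comparisons. Markers of other cells set some libraries apart within their group: sham blood 1 held 19.4 CPM of 8 summed platelet markers beside 477 and 714 CPM in the other sham libraries, and 1248 CPM of 6 erythroid markers beside 33800 and 31060 CPM. In stroke brain, 9 summed microglia markers reached 1206, 1908 and 3572 CPM, so library 1 was lowest and library 3 highest.

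Summed levels of the family were close in the 3 groups. Counts of the 52 genes summed to 4677, 4112 and 4374 CPM in sham blood, 4365, 4355 and 4099 CPM in stroke blood and 4227, 4392 and 4251 CPM in stroke brain, and the 3 groups overlapped. As a plain share of all counts, without TMM scaling, the family took 0.457%, 0.415% and 0.428% in sham blood, 0.413%, 0.426% and 0.37% in stroke blood and 0.463%, 0.468% and 0.452% in stroke brain, where brain lay above stroke blood without overlap. Mean levels of 100 CPM or more were reached by 14 genes in sham blood, 14 in stroke blood and 15 in stroke brain, while 8, 7 and 6 genes averaged less than 1 CPM. To compare genes with each other, levels were divided by the length of a gene's exons in kb. On this scale Rab32, which works on lysosome-related organelles, led in sham blood at 179.7 ± 15.8 CPM per kb (SD, n = 3), followed by Rab1b (157 ± 9.9), Rab7 (144 ± 6.14), Rab2a (109 ± 8.71) and Rab31 (85.2 ± 7.67). Rab1b and Rab2a act between the endoplasmic reticulum (ER) and the Golgi, Rab7 on late endosomes and Rab31 on early endosomes and the trans-Golgi network. In stroke blood the order was Rab1b (162 ± 6.11 CPM per kb), Rab7 (144 ± 13.9), Rab32 (138 ± 21.6), Rab2a (98.5 ± 5.7) and Rab31 (87.5 ± 11). Stroke brain had Rab32 (150.0 ± 26.9 CPM per kb), Rab7 (148 ± 7.38), Rab1b (118 ± 18.5), Rab2a (114 ± 4.47) and then Rab20 (91.3 ± 16.2) ahead of Rab31 (82.8 ± 5.44). Neighbours in these orders often lay within each other's spread, as Rab32 and Rab7 did in stroke brain. The leading 5 genes made up 51.1%, 49.3% and 47.8% of the family's summed level per kb in sham blood, stroke blood and stroke brain. Rab20 ranked 20 in sham blood, 22 in stroke blood and 5 in stroke brain, and Rab7b moved from ranks 24 and 25 to rank 11.

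**Figure D1:**
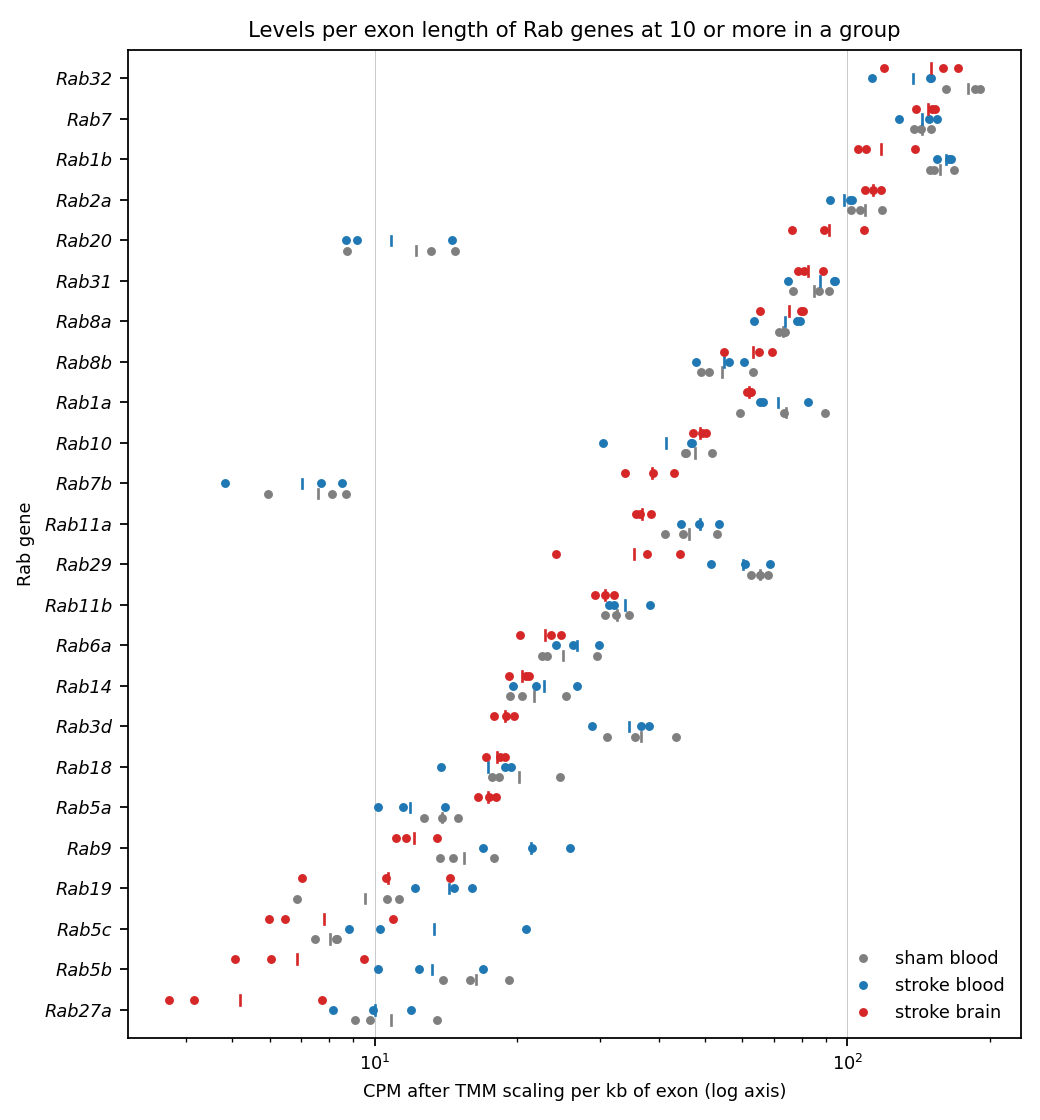
CPM after TMM scaling per kb of exon (log axis) for each Rab gene with a group mean of at least 10 on that scale. Points are libraries, short vertical lines group means, and colors the 3 groups (n = 3 each); Rab20 and Rab7b have their brain points to the right of all their blood points.

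The comparison of stroke brain with stroke blood asked how cells sorted from the injured hemisphere differed from those circulating in stroke mice. Brain tissue was dissociated with a kit on a heated device and run on a Percoll gradient, while blood was fractionated on Ficoll. Tissue and cell preparation thus differ together in both brain comparisons and cannot be told apart. A DEG had to pass an adjusted p of 0.05 in edgeR's quasi-likelihood test, adjusted over all genes tested, with a log2 fold change over 1 in size. Of 47 Rab genes tested, 5 were DEGs higher in stroke brain (10.6%, beside 13.1% of all 13189 genes), namely Rab20, Rab7b, Rab12, Rab34 and Rab4a. No Rab gene was a DEG lower in stroke brain in edgeR (0 of 47, beside 7.86% of all genes), while 19 Rab genes in either direction had an unadjusted p below 0.05 and DESeq2 called 3 lower DEGs. At an adjusted p below 0.05 and any fold change, 7 Rab genes were higher (14.9%, beside 17.5% of all genes) and 5 were lower (10.6%, beside 13.1%). Without 1 library at a time the higher DEGs numbered 5 to 7, and the lower DEGs 1 without stroke blood 2, stroke blood 3 or stroke brain 2 and 4 without stroke brain 1. The 5 lower calls at any fold change became 1 without stroke blood 1 or stroke brain 3, 3 without stroke blood 3 or stroke brain 2, and 7 without stroke brain 1. Scaling by library size alone turned the split of 7 higher and 5 lower into 8 and 2.

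The median log2 fold change of the Rab genes was -0.05, beside 0.06 over all genes tested. It turned positive with library size alone, at 0.11, where the median of all genes moved to 0.22, and also with DESeq2 (0.03) and with no filter on low counts (0.03), as well as without stroke brain 1 (0.08) or stroke brain 3 (0.03). Fold changes of genes with 3 counts or fewer in a group depend on the prior count. The median was the same with Rab4a, which had no count in stroke blood, at its bound. Rab4a lay above the median either way, so this could not have moved it, and Rab34 kept its fitted value. Regardless of sign, the median absolute log2 fold change was 0.42 for the Rab genes and 0.57 for all genes.

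Compared with sham blood, stroke brain again had 5 higher Rab DEGs, and the gene names were the same (10.4% of 48 tested, beside 9.75% of all 13020 genes). Rab5b was the 1 lower DEG (2.08%, beside 3.67% of all genes). Any fold change gave 5 higher Rab genes (10.4%, beside 12.1%) and 3 lower ones (6.25%, beside 7.68%), the latter being Rab5b, Rab3d and Rab29. This comparison shares the 3 brain libraries with the one against stroke blood, so the calls are not independent, and tissue and surgery differ together in it. The 5 higher DEGs became 3 without stroke brain 2, stroke brain 3, sham blood 2 or sham blood 3. The lower calls became 6 without stroke brain 1, 1 without stroke brain 3 and 2 without sham blood 1, 2 or 3, and the lower DEGs 3 without stroke brain 1, 2 without stroke brain 2 or sham blood 1 and 0 without stroke brain 3. Rab genes had a median log2 fold change of 0.04 beside 0.01 for all genes, which library size alone moved to 0.16 and 0.13, and which was negative without stroke brain 2 (-0.0098), sham blood 2 (-0.03) or sham blood 3 (-0.0011). Libraries hold RNA from many cells, so fewer cells of a type and less RNA per cell cannot be told apart in any of these values.

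**Figure D2:**
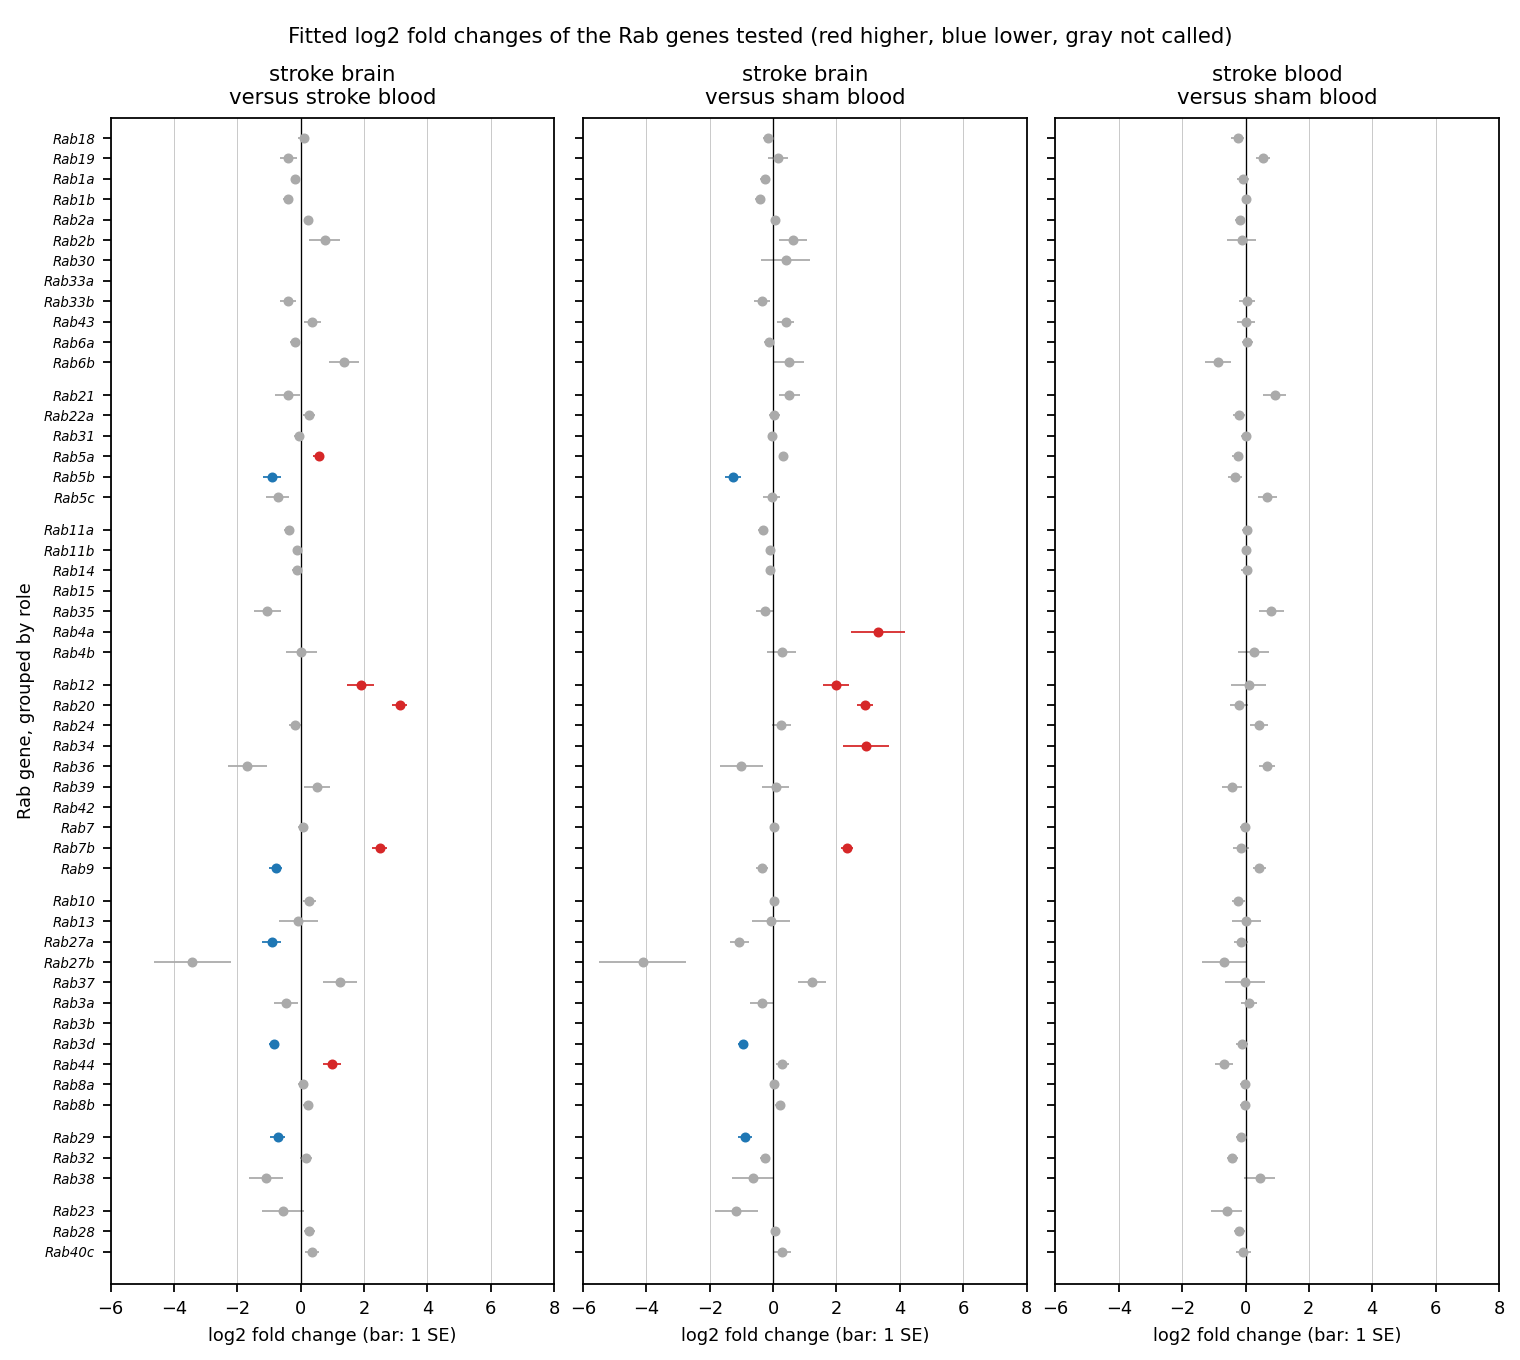
Fitted log2 fold changes (x axis, bars 1 SE) of the Rab genes tested in each comparison, grouped by role from ER and Golgi at the top to cilium at the bottom. Red marks genes called higher and blue genes called lower at an adjusted p below 0.05; genes with 3 counts or fewer in a group (Rab4a and Rab34 against stroke blood) and genes not tested have no point, and no point is colored in the comparison of stroke blood with sham blood.

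Late endosomes, lysosomes, phagosomes and autophagosomes are the site of 10 members, 9 of which were tested in each brain comparison. Versus stroke blood, 4 were higher (44.4%, beside 17.5% of all genes) and 1 lower (11.1%, beside 13.1%), with a median log2 fold change of 0.51 over the 9 tested, beside 0.06 over all genes. The role lists were written with earlier results of these data known, and 1 member placed elsewhere would move shares of 9 genes. Versus sham blood, the same 4 were higher (beside 12.1% of all genes), with a median of 0.26 beside 0.01, and 0 lower in edgeR (beside 7.68%; 0 with an unadjusted p below 0.05, 0 in DESeq2). Rab20 (ENSMUSG00000031504, chr8:11453518-11478710, GRCm38), which takes part in phagosome maturation, stood at 20.6, 18.3 and 12.2 CPM in sham blood, 12.8, 12.1 and 20.3 CPM in stroke blood and 151, 124 and 106 CPM in stroke brain. Group means were 17 ± 4.35 CPM in sham blood, 15.1 ± 4.56 CPM in stroke blood and 127 ± 22.6 CPM in stroke brain (SD, n = 3). All 3 brain libraries lay far above the 6 blood libraries, and the bloods overlapped each other. The log2 fold change was 3.12 ± 0.25 (SE, adjusted p = 4.5e-05) versus stroke blood and 2.90 ± 0.24 (SE, adjusted p = 0.000541) versus sham blood in edgeR, and Rab20 was called in every alternative fit run. Exons of E230013L22Rik on the opposite strand cover 25.6% of the exon bases of Rab20, and the strand setting of the counts is not stated.

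Rab7b (ENSMUSG00000052688, chr1:131688695-131715439), which serves transport from endosomes to the trans-Golgi network and the lysosomal delivery of Toll-like receptors, had 37.6, 27.5 and 40.3 CPM in sham blood, 22.4, 35.6 and 39.4 CPM in stroke blood and 179, 199 and 157 CPM in stroke brain. Its means were 35.2 ± 6.76 CPM in sham blood, 32.4 ± 8.93 CPM in stroke blood and 178 ± 21.1 CPM in stroke brain (SD, n = 3), with no overlap between brain and blood. Log2 fold changes were 2.49 ± 0.23 (SE, adjusted p = 0.000106) versus stroke blood and 2.34 ± 0.19 (SE, adjusted p = 0.000488) versus sham blood, called in every alternative fit run. Rab12 (ENSMUSG00000023460, chr17:66494512-66519729), known for the delivery of membrane receptors to lysosomes, had 3.53, 8.61 and 2.93 CPM in sham blood, 7.24, 1.9 and 7.54 CPM in stroke blood and 19.5, 20 and 20.3 CPM in stroke brain. The brain libraries lay within 1 CPM of each other and above each blood library, while the blood values scattered widely. Rab12 rose by a log2 fold change of 1.89 ± 0.43 (SE, adjusted p = 0.0103) versus stroke blood and 1.98 ± 0.41 (SE, adjusted p = 0.0145) versus sham blood, also called in every alternative fit run, and the second was 2.61 without sham blood 2.

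Rab34 (ENSMUSG00000002059, chr11:78188430-78192193), linked to lysosome positioning, macropinocytosis and ciliogenesis, was scarce, with 15, 2 and 3 counts in sham blood, 0, 2 and 0 in stroke blood and 54, 58 and 64 in stroke brain. In CPM these were 0.746, 0.0931 and 0.166 in sham blood, 0, 0.0948 and 0 in stroke blood and 2.63, 2.41 and 2.79 in stroke brain. The brain values stood close together and above each blood value, and sham blood 1 was the highest of the blood libraries. With 2 counts in all of stroke blood, the ratio of brain to stroke blood was 74.8, with an exact 95% counting interval of 20.4 to 622 (edgeR, adjusted p = 0.00117). Both counts are from stroke blood 2, and without it the brain was at least 15.7-fold higher, counting 3 per stroke blood library as the floor, while the ratio was 49.2 without stroke blood 1. Against sham blood, Rab34 had a log2 fold change of 2.93 ± 0.73 (SE, adjusted p = 0.0275), or 4.29 without sham blood 1, and the call was lost without sham blood 2 (adjusted p = 0.0766), sham blood 3 (0.101), stroke brain 2 (0.0673) or stroke brain 3 (0.0727). Rab9, which returns cargo from late endosomes to the trans-Golgi network, had 31.3, 25.6 and 24 CPM in sham blood, 37.6, 29.6 and 45.3 CPM in stroke blood and 23.7, 19.4 and 20.4 CPM in stroke brain. Stroke brain was below both bloods with no overlap, and stroke blood 3 was the highest library. It fell versus stroke blood, by a log2 fold change of -0.79 ± 0.21 (SE, adjusted p = 0.0193), and that call was lost without stroke blood 1 (adjusted p = 0.0605), stroke blood 3 (0.0613), stroke brain 2 (0.0729) or stroke brain 3 (0.0735). Versus sham blood the value was -0.35 (adjusted p = 0.217), not called.

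Rab7, the best known marker of late endosomes and the switch to lysosome fusion, showed no such gap. It had 393, 361 and 374 CPM in sham blood, 404, 388 and 335 CPM in stroke blood and 365, 401 and 394 CPM in stroke brain, and all groups overlapped, with log2 fold changes of 0.07 versus stroke blood and 0.04 versus sham blood (adjusted p = 0.737 and 0.848). Rab36, another lysosomal member, had 7.56, 11.3 and 15.2 CPM in sham blood, 18, 19.9 and 17.6 CPM in stroke blood and 10.7, 1.12 and 5.1 CPM in stroke brain, so stroke brain 2 was lowest and stroke brain 1 reached the sham range. Its log2 fold change versus stroke blood, -1.68, was not called (adjusted p = 0.0616), though 6 of 12 alternative fits called it, among them those without stroke brain 1 (adjusted p = 0.00808) or stroke brain 2 (0.0481), where it was -2.55 and -1.19. Rab24, an autophagy-linked member whose exons overlap those of Prelid1 on the opposite strand by 62.4%, and Rab39 were not called in either brain comparison, with log2 fold changes between -0.17 and 0.51.

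Promoter sequences were looked at because Rab20 and Rab34 were higher in the brain, and Rab5b and Rab3d lower. RefSeq promoter entries (GRCm38.p6) matched 42 of the 52 members, with 54 transcription starts, and had none for Rab18, Rab27b, Rab2a, Rab30, Rab36, Rab37, Rab38, Rab44, Rab4a and Rab7b. The 250 bases before each start were searched on both strands for 4 motifs. CACGTG, the E-box core of the MiT/TFE factors of lysosome biogenesis, occurs in 6.02% of 32851 promoters of that length and at 5 of the 54 Rab starts (9.26%), those of Rab20, Rab21, Rab23, Rab27a and Rab5a. ACGTG, a form of the core of the hypoxia response element, is contained in the E-box and occurs in 16.6% of all promoters and 16.7% of the Rab starts. Other forms of that core were not searched. The AP-1 motif TGANTCA occurs in 6.75% of all promoters and 3.7% of the Rab starts, those of Rab15 and Rab34. A PU.1-like motif, GAGGAAG, occurs in 10.6% of all promoters and 9.26% of the Rab starts, those of Rab12, Rab2b, Rab32, Rab33b and Rab6a. Sequences are written 5′ to 3′ with the match in capitals. For Rab20 (chr8:11478681-11478890, minus strand) the E-box begins 46 bases before the RefSeq start and lies inside the gene as GENCODE draws it, and the 40 bases after it are left out. For Rab34 (chr11:78188177-78188426, plus strand) TGAGTCA begins 58 bases before the first start. Matches also lay at genes called lower versus stroke blood, CACGTG at a start of Rab27a and ACGTG at Rab29. Rab5a (CACGTG) and Rab12 (GAGGAAG), called higher, held matches too. The printed promoters were picked with the calls known, so no contrast between directions is read from them. A match describes letters in a window, and binding was not measured. Rab20: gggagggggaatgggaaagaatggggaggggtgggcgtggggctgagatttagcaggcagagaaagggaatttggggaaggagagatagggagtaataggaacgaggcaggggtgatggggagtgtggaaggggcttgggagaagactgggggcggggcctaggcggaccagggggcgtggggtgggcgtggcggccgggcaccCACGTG
Rab34: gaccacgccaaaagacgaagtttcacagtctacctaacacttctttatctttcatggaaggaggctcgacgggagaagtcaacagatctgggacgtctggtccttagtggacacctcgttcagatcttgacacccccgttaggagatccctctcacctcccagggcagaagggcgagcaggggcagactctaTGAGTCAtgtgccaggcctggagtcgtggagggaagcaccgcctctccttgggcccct

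Early endosomes and uptake are served by 6 members, all tested, of which Rab5a rose and Rab5b fell versus stroke blood (16.7% each, near the 17.5% and 13.1% of all genes) and Rab5b fell versus sham blood (16.7%, beside 7.68%). The list's median log2 fold change was -0.23 versus stroke blood and -0.0048 versus sham blood, beside 0.06 and 0.01 over all genes. The 3 Rab5 proteins drive homotypic fusion of early endosomes and mark new phagosomes. Rab5a had 79.2, 73.2 and 66.9 CPM in sham blood, 60.6, 74.2 and 53.5 CPM in stroke blood and 87.3, 95 and 91.8 CPM in stroke brain, and each brain library exceeded each blood library. Its log2 fold change was 0.57 ± 0.18 (SE, adjusted p = 0.0352) versus stroke blood, and the call was lost with no filter on low counts, with the replicate block, and without stroke blood 1 (adjusted p = 0.12), stroke blood 3 (0.101), stroke brain 2 (0.109) or stroke brain 3 (0.0992). Versus sham blood it was 0.32 (adjusted p = 0.133), called with library size alone only. Rab5b (ENSMUSG00000000711, chr10:128677175-128696264) went the other way, with 80.8, 58.7 and 66.9 CPM in sham blood, 52.3, 71.3 and 42.8 CPM in stroke blood and 39.8, 21.3 and 25.4 CPM in stroke brain. Means were 68.8 ± 11.2 CPM in sham blood, 55.5 ± 14.5 CPM in stroke blood and 28.8 ± 9.73 CPM in stroke brain (SD, n = 3); brain values lay under all blood values, and stroke brain 1 came within 3 CPM of stroke blood 3. Rab5b was a DEG versus sham blood, with a log2 fold change of -1.26 ± 0.26 (SE, adjusted p = 0.0148), lost without stroke brain 3 (adjusted p = 0.0583). Versus stroke blood the value was -0.91 ± 0.29 (SE, adjusted p = 0.0382), lost with library size alone and without stroke blood 1 (adjusted p = 0.0775), stroke blood 2 (0.113), stroke brain 2 (0.127) or stroke brain 3 (0.128).

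Rab5c had 18.2, 16.4 and 18.3 CPM in sham blood, 22.6, 19.4 and 46 CPM in stroke blood and 24.1, 13.1 and 14.2 CPM in stroke brain, with stroke blood 3 standing apart, and it was not called versus stroke blood (-0.73, adjusted p = 0.154) or sham blood (-0.04, adjusted p = 0.923). Rab31 had 333, 292 and 349 CPM in sham blood, 285, 357 and 359 CPM in stroke blood and 339, 309 and 299 CPM in stroke brain, an overlapping spread in all 3 groups. Rab21, which traffics integrins, and Rab22a were not called either, and Rab21 ranged widely, from 10.4 to 35.7 CPM over the 9 libraries. The promoter of Rab5b (chr10:128696269-128696518, minus strand), shown beside those of the genes that rose, held none of the 4 motifs:
Rab5b: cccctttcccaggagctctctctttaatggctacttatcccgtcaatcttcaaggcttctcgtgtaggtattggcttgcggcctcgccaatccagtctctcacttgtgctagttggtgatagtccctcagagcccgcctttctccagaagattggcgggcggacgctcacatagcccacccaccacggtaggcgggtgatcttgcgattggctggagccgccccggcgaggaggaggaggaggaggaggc

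Recycling from endosomes to the surface is the work of 7 members, 6 of them tested, with 1 higher in each brain comparison (16.7%, beside 17.5% and 12.1% of all genes) and a median log2 fold change of -0.11 versus stroke blood and -0.09 versus sham blood, beside 0.06 and 0.01. Rab4a (ENSMUSG00000019478, chr8:123805985-123835287), the Rab of fast recycling, was called in both brain comparisons from few counts, 0, 3 and 3 in sham blood, 0, 0 and 0 in stroke blood and 14, 22 and 36 in stroke brain. The brain libraries stood at 0.682, 0.913 and 1.57 CPM, and no blood library held more than 3 counts. With all stroke blood libraries at 0, stroke brain was at least 6.67-fold higher, counting 3 per stroke blood library as the floor (adjusted p = 0.00338, called in every alternative fit run). The count ratio to sham blood was 10.6 (exact 95% interval 4.64 to 29.8; adjusted p = 0.0307), or 7.02 without sham blood 1, and the call was lost without sham blood 1 (adjusted p = 0.0591), sham blood 2 (0.10), sham blood 3 (0.0885), stroke brain 2 (0.0754) or stroke brain 3 (0.10). Its paralog Rab4b, whose exons overlap Gm21983 on the same strand by 69.4%, had 0.547, 0.931 and 1.05 CPM in sham blood, 1.12, 0.995 and 0.957 CPM in stroke blood and 0.925, 1.2 and 0.915 CPM in stroke brain, with no gap between groups.

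Rab11a, the main Rab of the slow recycling compartment, had 158, 123 and 135 CPM in sham blood, 160.5, 145 and 133 CPM in stroke blood and 107, 109 and 115 CPM in stroke brain. Brain values lay just under all blood values. The log2 fold changes, -0.37 versus stroke blood (adjusted p = 0.0817) and -0.33 versus sham blood (0.14), were not called, except versus stroke blood without stroke blood 3 (adjusted p = 0.0494). Rab11b, Rab14 and Rab35, which serves a fast recycling route, were not called in the brain comparisons, with log2 fold changes from -1.06 (Rab35 versus stroke blood, where stroke blood 3 reached 21.3 CPM) to -0.09, though Rab35 was called versus stroke blood by DESeq2 and without stroke blood 2 (adjusted p = 0.0227). Rab15 missed the low-count filter in all comparisons, with 0 counts in the 6 blood libraries and 28, 6 and 8 in stroke brain. It was at least 4.13-fold higher than stroke blood and 4.31-fold higher than sham blood on the same floor. Stroke brain 1 carried most of those counts, and without it the bounds were 1.89 and 1.97. DESeq2, which kept all 52 Rab genes in both brain comparisons, called 2 recycling members higher in each. Beside Rab4a this was Rab15, as DESeq2 gained no other recycling member as higher.

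Secretion and polarized exocytosis include 11 members, 10 of them tested, with 1 higher (beside 17.5% of all genes) and 2 lower (beside 13.1%) versus stroke blood and 1 lower versus sham blood (beside 7.68%), counts near the shares of all genes, and a median log2 fold change of -0.01 in each (all genes, 0.06 and 0.01). Rab3d (ENSMUSG00000019066, chr9:21907491-21918192), found on secretory granules, had 130.0, 149 and 182 CPM in sham blood, 159.5, 154 and 121 CPM in stroke blood and 82.6, 75 and 79.6 CPM in stroke brain. Means were 154 ± 26.5 CPM in sham blood, 145 ± 20.7 CPM in stroke blood and 79.1 ± 3.8 CPM in stroke brain (SD, n = 3), and the tight brain group lay below each blood library. Rab3d fell by a log2 fold change of -0.84 ± 0.17 (SE, adjusted p = 0.00502) versus stroke blood and -0.96 ± 0.16 (SE, adjusted p = 0.00689) versus sham blood, and was called in every alternative fit run, though under the DEG threshold of 1 in both. Its promoter (chr9:21918184-21918433, minus strand), printed because its lower call was kept in every fit run, held none of the 4 motifs:
Rab3d: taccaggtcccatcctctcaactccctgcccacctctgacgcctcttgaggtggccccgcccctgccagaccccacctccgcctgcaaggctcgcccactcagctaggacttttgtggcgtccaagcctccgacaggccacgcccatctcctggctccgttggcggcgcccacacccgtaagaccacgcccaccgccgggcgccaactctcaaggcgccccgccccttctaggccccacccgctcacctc

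Rab27a, which docks secretory lysosomes at the plasma membrane, had 35.2, 38 and 52.6 CPM in sham blood, 46.3, 31.7 and 38.4 CPM in stroke blood and 30, 14.2 and 16.1 CPM in stroke brain. Brain values lay under all blood values, with stroke brain 1 closest to them. The log2 fold change versus stroke blood was -0.91 ± 0.30 (SE, adjusted p = 0.0462), lost with library size alone and without stroke blood 1 (adjusted p = 0.146), stroke blood 2 (0.0567), stroke blood 3 (0.0994), stroke brain 2 (0.143) or stroke brain 3 (0.152). Versus sham blood, -1.06 missed the threshold (adjusted p = 0.0503) and passed without stroke brain 1 (adjusted p = 0.00957), and also with DESeq2, RLE scaling, no filter on low counts or all 9 libraries in 1 fit. Rab27b, known from platelet dense granules, had 14, 97 and 116 counts in sham blood, 66, 63 and 17 in stroke blood and 14, 0 and 0 in stroke brain. The brain count came from stroke brain 1 alone, and sham blood 1 was far below the other sham libraries. Neither fold change was called (log2 -3.42, adjusted p = 0.0595, and -4.12, adjusted p = 0.0727), but both were called without stroke brain 1 (adjusted p = 0.00305 versus stroke blood and 0.0249 versus sham blood). That fit leaves 0 brain counts, so that stroke brain 2 and 3 together were at least 19.2-fold below stroke blood and 30.4-fold below sham blood with 3 counts per brain library as the floor. The first was also called with DESeq2, no filter or the replicate block, and the second with no filter or all 9 libraries in 1 fit. The 8 platelet markers moved alongside, at 19.4, 477 and 714 CPM in sham blood, 355, 425 and 375 CPM in stroke blood and 35, 58 and 79.4 CPM in stroke brain. Of them, 7 were lower in stroke brain in each comparison, the most abundant one in brain was Pf4 at 53.0 CPM, and Gp5 was at 0 there; their part in the Rab27b values was not tested.

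Rab44, a large Rab protein with EF hands, had 13.1, 17.3 and 16.6 CPM in sham blood, 6.17, 12.3 and 11.2 CPM in stroke blood and 18.4, 17.2 and 21.9 CPM in stroke brain, the lowest levels being those of stroke blood. It rose versus stroke blood, by a log2 fold change of 0.98 ± 0.29 (SE, adjusted p = 0.0318), lost without stroke blood 1 (adjusted p = 0.0914), stroke blood 3 (0.0626), stroke brain 2 (0.057) or stroke brain 3 (0.103). Versus sham blood, whose range overlapped that of the brain, the value was 0.29 (adjusted p = 0.352), not called. Rab37, a granule Rab, had 1.84, 6.19 and 4.65 CPM in sham blood, 5.4, 6.21 and 1.08 CPM in stroke blood and 7.3, 9.63 and 12.8 CPM in stroke brain, higher in each brain library than in any blood library, yet its log2 fold changes of 1.24 and 1.22 missed the threshold (adjusted p = 0.117 and 0.0959), except versus sham blood in DESeq2. Rab8a, Rab8b and Rab10, which serve exocytosis and, in macrophages, cytokine and receptor traffic, were abundant and not called, with brain means of 352 ± 40.3, 298 ± 34.8 and 172 ± 5.48 CPM (SD, n = 3).

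Lysosome-related organelles have 3 members, all tested, with 1 lower in each brain comparison (beside 13.1% and 7.68% of all genes) and a median log2 fold change of -0.73 versus stroke blood and -0.65 versus sham blood, beside 0.06 and 0.01. Rab29 (ENSMUSG00000026433, chr1:131867224-131872887), which recruits the kinase LRRK2 to Golgi and lysosomal membranes, had 95.9, 99.5 and 91.9 CPM in sham blood, 89.2, 75.4 and 100.5 CPM in stroke blood and 35.5, 65 and 55.3 CPM in stroke brain. Means were 95.8 ± 3.82 CPM in sham blood, 88.4 ± 12.6 CPM in stroke blood and 51.9 ± 15.1 CPM in stroke brain (SD, n = 3), brain below blood without overlap and stroke brain 1 lowest. The log2 fold changes were -0.73 ± 0.23 (SE, adjusted p = 0.0366) versus stroke blood and -0.89 ± 0.22 (SE, adjusted p = 0.0281) versus sham blood. The first was lost with library size alone and without stroke blood 1 (adjusted p = 0.0902), stroke blood 3 (0.104), stroke brain 1 (0.0646) or stroke brain 3 (0.089), the second without sham blood 1 (adjusted p = 0.0561), sham blood 2 (0.0767), sham blood 3 (0.0647) or stroke brain 3 (0.0756). Rab32 had 447, 378 and 436 CPM in sham blood, 352, 349.7 and 264 CPM in stroke blood and 280.1, 400.1 and 372 CPM in stroke brain, and its brain range overlapped both bloods (log2 0.15, adjusted p = 0.571, and -0.26, adjusted p = 0.302). Rab38, its close relative, stayed low at 2.79, 2.47 and 0.83 CPM in sham blood, 2.9, 2.84 and 2.75 CPM in stroke blood and 1.7, 0.498 and 1.7 CPM in stroke brain and was not called.

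**Figure D3:**
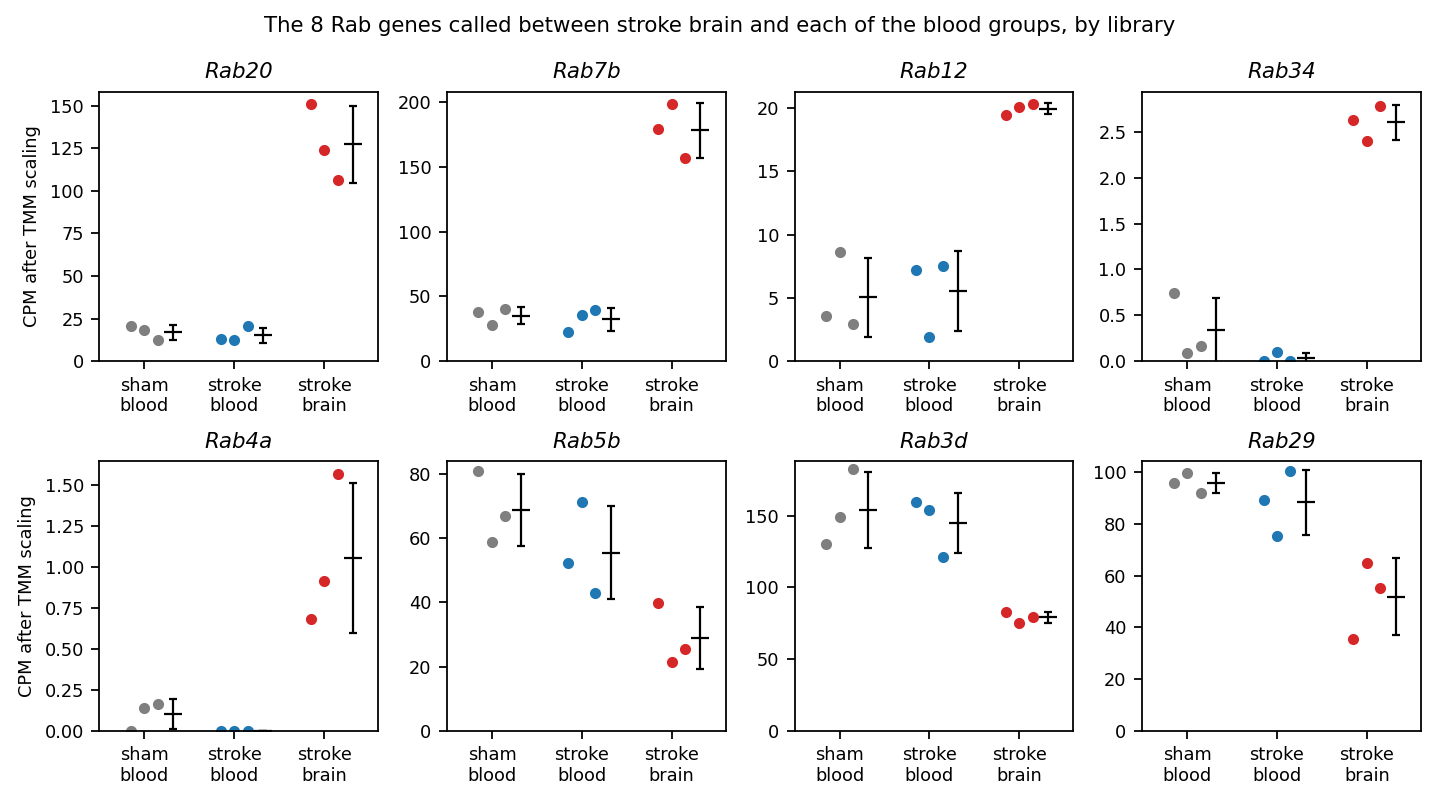
CPM after TMM scaling (y axes, own range per panel, from 0) of the 8 Rab genes called between stroke brain and each of the blood groups. Colored points are libraries and black marks with bars the mean and SD of 3; Rab20, Rab7b, Rab12, Rab34 and Rab4a are higher and Rab5b, Rab3d and Rab29 lower in each brain library than in any blood library.

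Traffic between ER and Golgi is served by 12 members, the largest role list, and none of the 10 tested versus stroke blood or the 11 tested versus sham blood passed in edgeR, beside 17.5% of all genes higher and 13.1% lower in the first and 12.1% and 7.68% in the second (medians -0.04 and 0.06, beside 0.06 and 0.01). Unadjusted p was below 0.05 for Rab1b in both comparisons and for Rab6b versus stroke blood, and DESeq2 called Rab6b versus stroke blood. Rab1a, which moves cargo from ER to Golgi, had 340.5, 225 and 279 CPM in sham blood, 314, 252 and 249 CPM in stroke blood and 233, 238 and 236 CPM in stroke brain. Rab1b, with the same role, had 339, 347 and 382 CPM in sham blood, 373, 351 and 377 CPM in stroke blood and 316, 239.5 and 249 CPM in stroke brain, each brain value below each blood value. The log2 fold changes of Rab1b were -0.42 (adjusted p = 0.0726) and -0.41 (0.0969) versus stroke and sham blood, and it passed versus stroke blood with all 9 libraries in 1 fit or without stroke brain 1 (adjusted p = 0.021) and versus sham blood without stroke brain 1 (adjusted p = 0.0317). Rab2a had 253, 227 and 217 CPM in sham blood, 216, 218 and 196 CPM in stroke blood and 233, 242 and 252 CPM in stroke brain. Rab6b, a Golgi member known mainly from neurons, had 2.69, 4.1 and 2.1 CPM in sham blood, 1.78, 1.71 and 1.5 CPM in stroke blood and 2.29, 3.78 and 6.49 CPM in stroke brain, and its log2 fold change versus stroke blood of 1.36 was not called (adjusted p = 0.0557), though it passed with library size alone, with all 9 libraries in 1 fit and without stroke brain 1 (adjusted p = 0.0216). Rab18, Rab19, Rab2b, Rab33b, Rab43 and Rab6a were not called either, with log2 fold changes from -0.40 to 0.75 in the brain comparisons. Of these, Rab43 overlaps Gm45140 on the same strand over 75.4% of its exon bases. On the opposite strand, Rab2b overlaps Tox4 and Gm43766 over 64.0%, Rab6a overlaps Mrpl48 over 19.0% and Rab33b overlaps Gm38160 over 18.7%. Counts of these genes are uncertain.

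The cilium and other list holds Rab23, Rab28 and Rab40c, none of them called in edgeR (0 with an unadjusted p below 0.05, 0 in DESeq2), and the medians of the 3 were 0.27 versus stroke blood and 0.07 versus sham blood, beside 0.06 and 0.01. Rab28 had 37.1, 33.7 and 31.2 CPM in sham blood, 31, 32.4 and 27.6 CPM in stroke blood and 38.1, 35.1 and 34.2 CPM in stroke brain, and Rab40c, which acts in a ubiquitin ligase, 13.5, 24.1 and 17.6 CPM in sham blood, 17.9, 16.2 and 19.9 CPM in stroke blood and 16.7, 25.5 and 25.1 CPM in stroke brain; all groups overlapped except for Rab28 between stroke brain and stroke blood. Members with too few counts for the filter were Rab15, Rab33a, Rab3b and Rab42 in all comparisons, Rab30 in those with stroke blood, and Rab34 and Rab4a between the bloods. Rab33a had 1, 0 and 1 counts in sham blood, 0, 1 and 0 in stroke blood and 8, 13 and 3 in stroke brain, each brain library above each blood library in CPM, and Rab42 had none in the brain. Rab30 had 10, 19 and 8 counts in sham blood, 9, 0 and 1 in stroke blood and 36, 9 and 7 in stroke brain, the brain total resting mostly on stroke brain 1.

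The comparison of stroke blood with sham blood asked how circulating cells differed 5 days after dMCAO. No Rab gene of 45 tested passed in edgeR in either direction, by either rule, beside 0.0079% of all 12664 genes higher and 0.0% lower. An unadjusted p below 0.05 was found for 6 (Rab19, Rab21, Rab32, Rab36, Rab44 and Rab5c), and DESeq2 called 0, with 7 below 0.05. Log2 fold changes ran from -0.86 for Rab6b to 0.92 for Rab21, and the lowest adjusted p was 0.357, for Rab36 (0.68). Rab21 had 16.5, 10.4 and 11.2 CPM in sham blood and 26.4, 12.3 and 35.7 CPM in stroke blood, so stroke blood 1 and 3 stood above sham and stroke blood 2 among them. Rab32 had 447, 378 and 436 CPM in sham blood and 352, 349.7 and 264 CPM in stroke blood, a lower set of values without overlap (log2 -0.41, adjusted p = 0.385, not called). Rab36 showed the reverse, with 7.56, 11.3 and 15.2 CPM in sham blood and 18, 19.9 and 17.6 CPM in stroke blood. The median absolute log2 fold change was 0.17 for the Rab genes beside 0.28 for all genes. The Rab median of -0.02 stood above the -0.03 of all genes, and below it in each of the 6 fits without 1 library (Rab medians of -0.0918 to -0.0418), so no direction against all genes is read from it.

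Ratios between close paralogs are formed within a library and do not depend on scaling. They were compared for 14 of 17 pairs, those with both genes among the members, by exact two-sided permutation tests, whose smallest possible p for 3 against 3 libraries is 0.1. After adjustment over the 14 pairs no p lay below 0.2 versus stroke blood, 0.28 versus sham blood and 0.467 between the bloods, so the ratios are given as values. How reads matching both genes of a pair were counted is not given in the sources used. The log2 ratio of Rab7 to Rab7b was 3.38, 3.71 and 3.21 in sham blood, 4.17, 3.45 and 3.09 in stroke blood and 1.02, 1.01 and 1.33 in stroke brain. In brain it was lower than in any blood library, with mean differences of -2.45 versus stroke blood and -2.31 versus sham blood (exact permutation p = 0.1 in each). For Rab5b to Rab5c the log2 ratios were 2.15, 1.83 and 1.87 in sham blood, 1.21, 1.88 and -0.10 in stroke blood and 0.73, 0.70 and 0.83 in stroke brain, brain lying under sham blood without overlap (exact permutation p = 0.1) and inside the wide spread of stroke blood. Rab6a exceeded Rab6b by log2 ratios of 5.34, 4.39 and 5.31 in sham blood, 5.94, 5.83 and 5.88 in stroke blood and 5.32, 4.54 and 3.54 in stroke brain, where brain overlapped sham blood but not stroke blood. Rab11a to Rab11b had brain ratios of -0.88, -0.72 and -0.71, each below the sham values of -0.42, -0.69 and -0.48, while the stroke blood values of -0.29, -0.40 and -0.82 overlapped both. The pairs Rab1a and Rab1b, and Rab8a and Rab8b, overlapped in all comparisons.

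**Figure D4:**
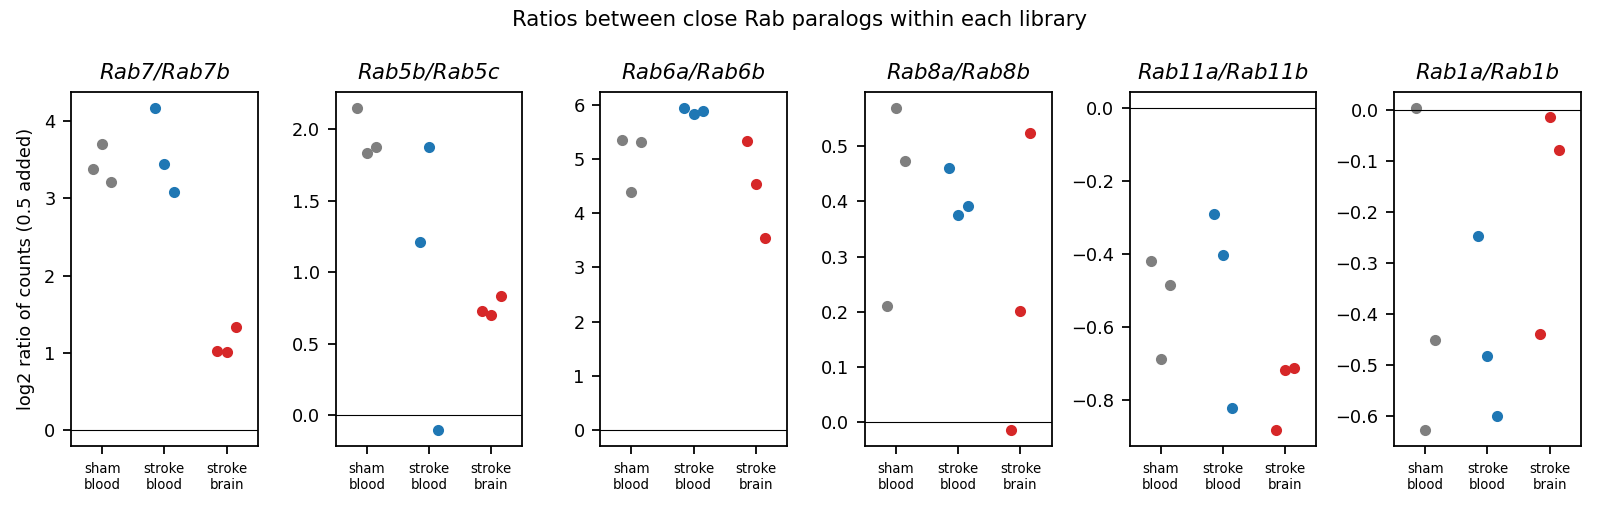
Log2 ratio of the counts of 2 paralogs (y axis, 0.5 added to each count, own range per panel) in each library, by group (x axis), for 6 pairs; the horizontal line marks equal counts. The 3 brain libraries of Rab7/Rab7b lie between 1.01 and 1.33, below all blood libraries.

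Genes that regulate or read out Rab proteins were taken from 4 lists of 127 genes: 34 GEFs, 33 GAPs, 8 GDIs, escort proteins and prenyl transferase genes, and 52 effectors and kinases. These lists, too, were written with earlier results of these data known. Versus stroke blood, 23 of 117 tested were higher (19.7%, beside 17.5% of all genes) and 5 lower (4.27%, beside 13.1%), with a median log2 fold change of 0.29 beside 0.06. Versus sham blood, 20 of 118 were higher (16.9%, beside 12.1%) and 6 lower (5.08%, beside 7.68%), with a median of 0.22 beside 0.01. Between the bloods none of 116 passed in edgeR (10 had an unadjusted p below 0.05, and DESeq2 called 0). Library size alone raised the 23 to 35. Without stroke blood 1 the count of 23 was 14. The 5 lower calls were 8 without stroke brain 1 and 3 without stroke blood 3 or stroke brain 2. Versus sham blood the higher calls were 11 without stroke brain 2, 9 without stroke brain 3, 13 without sham blood 1, 10 without sham blood 2 and 8 without sham blood 3. The 6 lower ones were 2 without stroke brain 2, sham blood 1 or sham blood 3 and 1 without stroke brain 3 or sham blood 2.

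Among the GEFs, 6 of 33 tested were higher versus stroke blood (18.2%, near the 17.5% of all genes) and 0 lower in edgeR (beside 13.1%; 1 with an unadjusted p below 0.05, 1 in DESeq2), and 8 were higher (24.2%, beside 12.1%) and 2 lower (6.06%, beside 7.68%) versus sham blood. Rab3il1, a GEF of Rab8 and Rab3, had 6.61, 12.2 and 24.4 CPM in sham blood, 8.81, 9.15 and 15.3 CPM in stroke blood and 139, 251 and 293 CPM in stroke brain. Each brain library lay far above each blood library, and stroke brain 1 was the lowest of the 3. Its log2 fold change was 4.40 ± 0.33 (SE, adjusted p = 3.83e-05) versus stroke blood and 3.98 ± 0.51 (SE, adjusted p = 0.00285) versus sham blood, the second 4.58 without sham blood 3. Ric1, part of the Rab6 GEF, had 3.28, 8.71 and 7.08 CPM in sham blood, 3.52, 2.8 and 6.76 CPM in stroke blood and 15.3, 25.6 and 28.4 CPM in stroke brain, with log2 fold changes of 2.45 and 1.86 (adjusted p = 0.00149 and 0.0167), the second lost without sham blood 3 (adjusted p = 0.0521), stroke brain 2 (0.055) or stroke brain 3 (0.0577). Rabgef1, a GEF of Rab5, had 25.3, 20.8 and 18.9 CPM in sham blood, 13.1, 21.1 and 18.1 CPM in stroke blood and 119, 60.8 and 47 CPM in stroke brain, brain above blood and stroke brain 1 the highest. Log2 fold changes were 2.15 versus stroke blood and 1.81 versus sham blood (adjusted p = 0.00213 and 0.0116), the second lost without sham blood 3 (adjusted p = 0.0534). Hps4, a subunit of the GEF of Rab32 and Rab38 and named after its values were seen, had 14.4, 16.8 and 17.8 CPM in sham blood, 15.9, 14.6 and 15.9 CPM in stroke blood and 48.7, 38.3 and 36.8 CPM in stroke brain, with log2 fold changes of 1.45 and 1.34 (adjusted p = 0.000773 and 0.00392). Rin3, a Rab5 GEF, fell versus sham blood, with 308, 249 and 209.9 CPM in sham blood, 159.9, 161 and 182 CPM in stroke blood and 182, 72 and 90.4 CPM in stroke brain, a log2 fold change of -1.16 (adjusted p = 0.04999). It was lost with library size alone and without sham blood 1 (adjusted p = 0.127), sham blood 2 (0.113), sham blood 3 (0.085), stroke brain 2 (0.125) or stroke brain 3 (0.15), and -0.51 versus stroke blood (0.238) was called only without stroke brain 1 (adjusted p = 0.00316). Mon1b, part of the Rab7 GEF, also fell versus sham blood, with 38.5, 44.7 and 36.5 CPM in sham blood, 31.9, 37.3 and 26.9 CPM in stroke blood and 19.4, 29 and 18.2 CPM in stroke brain (log2 -0.85, adjusted p = 0.0324), lost with library size alone and without sham blood 1 (adjusted p = 0.060), sham blood 2 (0.103), sham blood 3 (0.0654), stroke brain 1 (0.0681) or stroke brain 3 (0.108), and was not called versus stroke blood (-0.50, adjusted p = 0.15).

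GAPs had 7 higher (21.9%, beside 17.5% of all genes) and 2 lower genes (6.25%, beside 13.1%) of 32 tested versus stroke blood, and 6 higher (18.8%, beside 12.1%) and 2 lower (6.25%, beside 7.68%) versus sham blood. Tbc1d4, a GAP of Rab10 and Rab8, had 4.18, 6.24 and 8.3 CPM in sham blood, 2.45, 3.03 and 2.33 CPM in stroke blood and 27.2, 21.6 and 15.7 CPM in stroke brain, brain above blood throughout. Log2 fold changes were 3.07 ± 0.31 (SE, adjusted p = 0.000162) versus stroke blood and 1.78 ± 0.32 (SE, adjusted p = 0.00957) versus sham blood. Tbc1d10a, a GAP of Rab27a and Rab35, had 21.9, 25.1 and 17.5 CPM in sham blood, 19.7, 22.4 and 17.6 CPM in stroke blood and 50.4, 55.5 and 48.2 CPM in stroke brain, with values of 1.40 ± 0.19 (SE, adjusted p = 0.000706) and 1.25 ± 0.18 (SE, adjusted p = 0.00445). Tbc1d16 had 0.845, 0.372 and 0.609 CPM in sham blood, 0.713, 0.474 and 0.359 CPM in stroke blood and 5.7, 1.12 and 3.92 CPM in stroke brain, above blood in each brain library but uneven, with log2 fold changes of 2.81 (adjusted p = 0.0127, lost without stroke blood 2 (adjusted p = 0.0518) or stroke blood 3 (0.0588)) and 2.54 (adjusted p = 0.0344, lost without sham blood 1 (adjusted p = 0.0602), sham blood 2 (0.116), sham blood 3 (0.108), stroke brain 1 (0.0817) or stroke brain 3 (0.0889)). Tbc1d13, a GAP of Rab35, fell versus stroke blood, with 7.06, 5.77 and 5.48 CPM in sham blood, 13.9, 6.4 and 22.7 CPM in stroke blood and 4.09, 1.08 and 1.96 CPM in stroke brain and a log2 fold change of -2.55 ± 0.57 (SE, adjusted p = 0.0093), or -3.19 without stroke brain 1. Its stroke blood values were uneven, with library 3 highest, and versus sham blood the value was -1.37 (adjusted p = 0.0901), called only with DESeq2 and without stroke brain 1 (adjusted p = 0.0195), where it was -2.01. Rabgap1l fell in both comparisons, with 25.1, 26.8 and 23.6 CPM in sham blood, 36.6, 30.4 and 31.2 CPM in stroke blood and 16, 15.2 and 14.9 CPM in stroke brain and log2 fold changes of -1.06 and -0.71 (adjusted p = 0.00302 and 0.0216), the second lost with the replicate block and without sham blood 2 (adjusted p = 0.0739), stroke brain 2 (0.0694) or stroke brain 3 (0.074). Evi5, a GAP of Rab11, had 43.4, 43.1 and 39 CPM in sham blood, 31.2, 42 and 43.3 CPM in stroke blood and 28, 30.3 and 25.5 CPM in stroke brain and fell versus sham blood (log2 -0.58, adjusted p = 0.0336), lost with library size alone, with no filter, with the replicate block and without sham blood 1 (adjusted p = 0.0783), sham blood 2 (0.106), sham blood 3 (0.0648), stroke brain 2 (0.067) or stroke brain 3 (0.119), and was not called versus stroke blood (-0.44, adjusted p = 0.12).

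In the list of GDIs, escort proteins and prenyl transferase genes, all 8 were tested, and 2 fell versus stroke blood (beside 13.1% of all genes) and 1 versus sham blood (beside 7.68%), with 0 higher in either in edgeR (0 with an unadjusted p below 0.05, 0 in DESeq2). Chml, a Rab escort protein, had 8.2, 6.7 and 5.86 CPM in sham blood, 6.32, 9.53 and 8.38 CPM in stroke blood and 3.85, 3.4 and 3.92 CPM in stroke brain. Its log2 fold change versus stroke blood was -1.08 (adjusted p = 0.0282), lost with the replicate block and without stroke blood 2 (adjusted p = 0.0737), stroke blood 3 (0.0601), stroke brain 2 (0.0893) or stroke brain 3 (0.0691), and -0.90 versus sham blood (0.059) was called only with DESeq2 and with all 9 libraries in 1 fit. Rabac1, a prenylated Rab acceptor, had 178, 192 and 199 CPM in sham blood, 223, 172 and 224 CPM in stroke blood and 102, 140.1 and 144 CPM in stroke brain, brain under blood without overlap. Log2 fold changes were -0.65 versus stroke blood (adjusted p = 0.0231) and -0.56 versus sham blood (0.0468). The first was lost with library size alone and without stroke blood 1 (adjusted p = 0.0769), stroke blood 3 (0.0617), stroke brain 1 (0.0516) or stroke brain 2 (0.0528), the second with library size alone, no filter or the replicate block and in each of the 6 fits without 1 library (adjusted p = 0.0603 to 0.105).

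Effectors and kinases gave 10 higher (22.7%, beside 17.5% of all genes) and 1 lower (2.27%, beside 13.1%) of 44 tested versus stroke blood, and 6 higher (13.3%, beside 12.1%) and 1 lower (2.22%, beside 7.68%) of 45 versus sham blood. The gene with the largest rise and the one that fell are both effectors of Rab27. Mlph, which links Rab27a to myosin, had 0, 1 and 0 counts in sham blood, 3, 2 and 0 in stroke blood and 48, 47 and 144 in stroke brain. The ratio of stroke brain to stroke blood was 40.6 (exact 95% counting interval 17.2 to 126, adjusted p = 0.00209), and to sham blood, with its 1 count, 211 (37.5 to 8370.0, adjusted p = 0.00345). Without stroke brain 3 these were 24.5 and 127. The first was 66.9 without stroke blood 1, and the second was 140 without sham blood 1. Without sham blood 2, which held the 1 count, the second was at least 22.3-fold on the floor of 3 counts per library. Sytl4, a Rab27 effector on granules, had 23, 76 and 124 counts in sham blood, 24, 137 and 43 in stroke blood and 0, 0 and 0 in stroke brain. Stroke brain was thus at least 25.6-fold lower than stroke blood and 28.8-fold lower than sham blood with 3 counts per brain library as the floor (adjusted p = 0.00232 and 0.00874), and the platelet markers given with Rab27b were low in the same libraries. The first bound was 14.2 without stroke blood 2 and the second 17.5 without sham blood 3, the libraries with the most counts. Sytl2, another Rab27 effector, had 0.895, 4.1 and 2.1 CPM in sham blood, 1.73, 2.13 and 0.179 CPM in stroke blood and 4.67, 7.68 and 8.41 CPM in stroke brain, with a log2 fold change of 2.36 versus stroke blood (adjusted p = 0.0267), lost without stroke blood 1 (adjusted p = 0.0685), stroke brain 2 (0.0672) or stroke brain 3 (0.0794), and 1.54 versus sham blood (0.0843) was called only with DESeq2, with the replicate block and without sham blood 2 (adjusted p = 0.0456), where it was 2.20. Osbpl1a, a cholesterol-sensing effector of Rab7, had 2.59, 2.51 and 2.82 CPM in sham blood, 1.17, 2.08 and 1.2 CPM in stroke blood and 7.69, 3.44 and 10.3 CPM in stroke brain and rose versus stroke blood by 2.29 ± 0.50 (SE, adjusted p = 0.0082), while 1.43 versus sham blood (adjusted p = 0.0515) was not called, though it passed with DESeq2, library size alone, no filter or all 9 libraries in 1 fit and without stroke brain 2 (adjusted p = 0.0238); 855 of its 7787 exon bases overlap AC102055.1 on the other strand. Rilpl1 had 3.28, 1.91 and 0.719 CPM in sham blood, 2.14, 2.7 and 0.598 CPM in stroke blood and 6.04, 9.67 and 7.28 CPM in stroke brain, with log2 fold changes of 2.09 (adjusted p = 0.015, lost without stroke brain 2 (adjusted p = 0.0547)) and 1.95 (adjusted p = 0.0362, lost without sham blood 2 (adjusted p = 0.112), sham blood 3 (0.0626), stroke brain 2 (0.111) or stroke brain 3 (0.0842)). Rufy3 had 15.5, 18.2 and 13.5 CPM in sham blood, 13.3, 13.7 and 9.15 CPM in stroke blood and 31.8, 41.1 and 38.6 CPM in stroke brain, each brain value above each blood value, with log2 fold changes of 1.65 and 1.24 (adjusted p = 0.000922 and 0.00528).

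Markers of other cell types differed between brain and blood alongside these genes. The 9 microglia markers summed to 159, 161 and 209 CPM in sham blood, 172, 206 and 149 CPM in stroke blood and 1206, 1908 and 3572 CPM in stroke brain, and all 9 were higher in stroke brain in both comparisons. Sall1 was at 0 in sham blood, and Sall1, Siglech and Slc2a5 were at 0 in stroke blood. Stroke brain 3, with the highest microglia sum, had the lowest Rab20 and Rab7b of the brain libraries, at 106 and 157 CPM, while Rab12 was level across them. Rab4a was highest in stroke brain 3 and lowest in stroke brain 1, and Rab34 was highest in stroke brain 3 and lowest in stroke brain 2. Of the 47 Rab genes tested versus stroke blood, 11 followed the order of the microglia sum over the brain libraries (23.4%, near the 20.5% of all genes), namely Rab11a, Rab12, Rab18, Rab19, Rab21, Rab2a, Rab37, Rab39, Rab3a, Rab4a and Rab6b, and 5 ran against it (10.6%, beside 17.0%), namely Rab10, Rab20, Rab28, Rab31 and Rab6a. Of the 28 regulators called versus stroke blood, 8 followed that order (28.6%, beside 20.5% of all genes). They were Rab3il1, Ric1, Sbf2, Tbc1d14, Rabac1, Rabep1, Vps39 and Sytl2. Another 5 ran against it (17.9%, beside 17.0%), namely Rabgef1, Madd, Hps4, Rabgap1l and Tbc1d4. The part of microglia in these values was not tested. Dendritic cell markers summed to 356, 271 and 114 CPM in sham blood, 131, 236 and 111 CPM in stroke blood and 932, 722 and 705 CPM in stroke brain, led by Cd209a, with none of the 7 at 0, and 6 of 7 were higher in brain versus stroke blood and 4 of 7 versus sham blood. Neutrophil markers summed to 766, 931 and 3040.0 CPM, 466, 792 and 688 CPM and 1311, 886 and 1414 CPM in the same order, with 7 of 9 tested higher and 1 lower versus stroke blood and 4 of 10 higher and 1 lower versus sham blood. Erythroid markers summed to 1248, 33800.0 and 31060.0 CPM, 15630.0, 14070.0 and 20410.0 CPM and 3.8, 11.7 and 13.7 CPM, and all 6 were lower in brain in both comparisons. Among the neutrophil markers, Elane (148.4, 10.46 and 16.82 CPM in stroke brain) and Mpo (144.4, 42.21 and 17.82 CPM) set stroke brain 1 apart. Ltf (22.4, 63.04 and 67.09 CPM) and Retnlg (177.8, 345.3 and 504.5 CPM) were lowest in that library. The part of such cells in the Rab values of stroke brain 1 was not tested.

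T and NK cell markers summed to 60.7, 131 and 75.3 CPM in sham blood, 125, 63.2 and 38.4 CPM in stroke blood and 117, 145 and 186 CPM in stroke brain, with 2 of 7 higher versus stroke blood. B cell markers summed to 126, 235 and 226 CPM, 114, 65.3 and 81.9 CPM and 50.5, 43.8 and 85.6 CPM, with 3 of 4 lower in brain versus sham blood. Neuronal markers were near 0, with at most 2.40 CPM for the sum of 6 in stroke brain 3, and Syt1, Rbfox3 and Stmn2 at 0 in all brain libraries. Oligodendrocyte markers, nearly all of it Mbp, summed to 259, 284 and 172 CPM in sham blood, 264, 332 and 207 CPM in stroke blood and 179, 142 and 126 CPM in stroke brain, with Mag higher in brain in both comparisons, Mbp lower versus stroke blood and Mog at 0. Astrocyte markers reached at most 13.0 CPM, with Slc1a2 higher in brain in both comparisons and Aldoc versus stroke blood, and endothelial markers stood between 33.3 and 59.2 CPM, with Cldn5 at 0 and Pecam1 higher versus stroke blood.

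**Figure D5:**
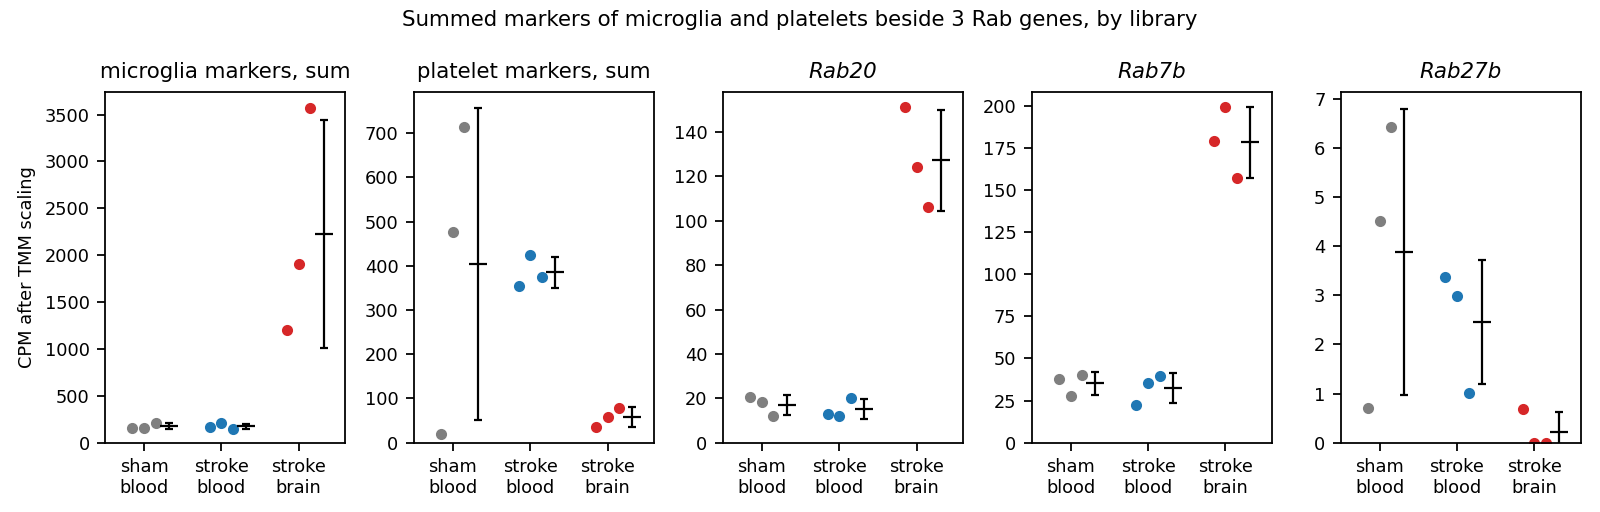
Summed CPM of 9 microglia and 8 platelet markers beside the CPM of Rab20, Rab7b and Rab27b (y axes, own range per panel, from 0) for each library, by group (x axis). Colored points are libraries, black marks and bars the mean and SD of 3; stroke brain 3 has the highest microglia sum and the lowest Rab20 and Rab7b of the brain libraries.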

How the data were processed

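The authors sequenced SMART-Seq HT cDNA in Nextera XT libraries on a NextSeq and used HISAT2 (GRCm38) for mapping and HTSeq for counts per gene; versions, annotation release and strand setting are not stated. The deposited files hold raw counts per Ensembl gene, 18475118 to 22623578 per library. Symbols came from GENCODE M21, which held 53706 of 53801 IDs, and coordinates were identical for 46 of the 52 Rab genes. Groups follow the sample titles. Each pair of groups was fitted on its own over all genes in R 4.3.3 with edgeR 4.0.16 (TMM, filterByExpr, quasi-likelihood test, Benjamini-Hochberg adjustment), checked and tested on simulated data. Calls needed an adjusted p below 0.05, and DEGs also a log2 fold change over 1 in size. Alternatives were DESeq2 1.42.0, RLE normalization, library size alone, no filter, all 9 libraries in one fit, a replicate block and leaving out each library. Ratios of paralogs (0.5 added to each count) used exact permutation tests in scipy 1.17.1. Named were the Rab genes that passed (up to 15 DEGs, up to 4 per role) and the 5 highest per length in each group. The best known or paired members were named too, as were up to 3 rises and 3 falls per regulator list and comparison. Members and lists were chosen with earlier results of these data known. Groups of 3 were not tested for outlying libraries.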

Additional observations from a re-analysis of the deposited data

How the results depend on the processing

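Versus stroke blood, Rab12, Rab20, Rab34, Rab3d, Rab4a and Rab7b were called in all 12 alternative fits, and the other 6 of the 12 called Rab genes were lost in some. Versus sham blood, Rab12, Rab20, Rab3d and Rab7b were called in all 12, and the other 4 of 8 were lost in some. No called Rab gene or regulator changed direction in any fit run, while 9, 14 and 20 Rab genes that were not called changed sign in at least 1 fit versus stroke blood, versus sham blood and between the bloods. Of the called regulators, 14 of 28 and 7 of 26 were called in all 12 fits; alternatives for the regulator counts were chosen after seeing the data.

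Lower Rab DEGs versus stroke blood, 0 with the standard settings, were 3 with DESeq2, 2 with no filter, 1 with all 9 libraries in one fit and 2 with the replicate block. Lower Rab calls at any fold change, 5, were 8 with DESeq2 and 2 with library size alone. Higher regulators, 23, were 35 with library size alone. The Rab median, -0.05, was 0.11 with library size alone. Versus sham blood, the 1 lower Rab DEG became 2 with DESeq2 or RLE and 3 with no filter or all 9 libraries in one fit, and the 3 lower Rab calls became 5 with no filter or all 9 libraries in one fit. The 6 lower regulators became 10 with DESeq2, 2 with library size alone and 3 with the replicate block, and the Rab median of 0.04 became 0.16 with library size alone. Between the bloods the Rab median of -0.02 became -0.0707 with DESeq2 and -0.0939 with no filter, both of which keep genes of low counts. The cause of the other shifts was not tested.

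Leaving out 1 library at a time versus stroke blood gave 5 to 7 higher and 0 to 4 lower Rab DEGs, 5 to 8 higher and 1 to 7 lower Rab calls, 14 to 25 higher and 3 to 8 lower regulators, and a Rab median of -0.0723 to 0.0819. Versus sham blood the ranges were 3 to 5 and 0 to 3 for DEGs, 3 to 5 and 1 to 6 for calls, 8 to 15 and 1 to 8 for regulators, and -0.034 to 0.0361 for the median. Between the bloods all counts were 0 to 0, and the median ran from -0.0918 to -0.0418. The replicate block treats libraries with the same number as paired, and same-numbered libraries did not resemble each other (r across genes -0.0858 to 0.0823 over 9 pairs, none above 0.1), so no pairing was used.

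Limits: 3 libraries per group, brain libraries that pool 5 mice, and no sham brain. Rab4a, Rab34, Rab15, Rab27b and Mlph rest on few counts. Exons on the opposite strand leave Rab20, Rab24, Rab2b, Rab6a and Rab33b uncertain, as the strand setting is not stated. Exons on the same strand leave Rab43 and Rab4b uncertain. Stroke and tissue cannot be told apart in the comparison of stroke brain with sham blood. Tissue and cell preparation cannot be told apart in either brain comparison.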
